A study of Caenorhabditis elegans with 4 samples.

Results

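Of the 42 genes described here, *gcy-2* is annotated as a pseudogene, and some others are also made outside sensory cells. The genes are best known from sensory cells of the nematode *Caenorhabditis elegans*. They make and read the second messenger cyclic GMP (cGMP), or carry the other main channel and odour signals of those cells. Members were picked out by gene name, as every *gcy* gene with a number in the deposited count table plus *daf-11*, *odr-1*, *tax-2*, *tax-4*, *osm-9*, *ocr-1*, *ocr-2*, *ocr-4*, *odr-3* and *odr-10*, which gave 32 *gcy* genes and 10 others among 19913 genes. The set holds receptor guanylyl cyclases, which span the cell membrane, and also 7 soluble guanylyl cyclases, which do not. RNA was taken from whole larvae of the first stage (L1) of *pry-1(mu38)* mutants and of the wild-type strain N2, with 2 libraries per strain, described as biological replicates. *pry-1* encodes an Axin, a scaffold that holds down WNT signalling through beta-catenin, and *mu38* is a mutant allele carried in all cells of the animal. All animals were grown at 20 degrees on standard plates and synchronized by repeated bleaching, and carried no other labelled allele or treatment.

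Guanylyl cyclases convert GTP to cGMP. In many ciliated sensory neurons of the worm, cGMP opens a cation channel built from TAX-2 and TAX-4, so that a change in cGMP becomes an electrical signal. Single receptor cyclases mark single neuron types: some are made only in the left or the right ASE taste neuron, others only in the AFD thermosensory neurons. Soluble cyclases bind oxygen through a haem group and are best known from URX, AQR and PQR, which sense oxygen, and from BAG. A separate set of neurons signals through the TRPV channel subunits OSM-9 and OCR-2. Because whole animals were sequenced, fewer cells of a type and less RNA per cell cannot be told apart in any of the values below.

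The libraries held 32310798 and 31418682 counts on genes in *pry-1(mu38)*, against 27741375 and 33230854 in N2. *pry-1* itself had 3812 and 3471 counts in *pry-1(mu38)* and 1926 and 2048 in N2, with a log2 fold change of 0.78 ± 0.17 (SE). That value does not check the labels, because the level of a transcript does not show which allele it carries. Of all 15101 genes with enough counts to be tested, N2 replicate 2 was at least 2-fold above N2 replicate 1 in 2419 (16%), so the wild-type pair was uneven. Values without N2 replicate 2 are given beside many of the main ones. Such fits hold 1 N2 library and leave 1 residual degree of freedom, so their p-values carry no spread between N2 libraries. Summed over 15 pan-neuronal genes, the level was 4201 and 4202 CPM (counts scaled to library size) in *pry-1(mu38)* and 4116 and 4682 CPM in N2, and summed over 5 body wall muscle genes it was 13054 and 13314 CPM in *pry-1(mu38)* and 13914 and 25261 CPM in N2. Of the 15 pan-neuronal genes, 9 had both mutant libraries below both N2 libraries (60.0%, against 28% of all tested genes). Both lay above in 4 (26.7%, against 29.1%). The part of this in the members' values was not tested.

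Of the 41 tested members, 13 had positive and 28 had negative log2 fold changes, and without N2 replicate 2 these counts were 20 and 21. Over all 15101 tested genes, 7315 values were positive and 7786 negative with all libraries. The 5 positive values with an unadjusted p under 0.05 were those of *gcy-25*, *gcy-32*, *gcy-35*, *gcy-36* and *gcy-37*, with *gcy-32* at 2.99-fold over N2. The 6 such negative values were those of *gcy-5*, *gcy-12*, *gcy-13*, *gcy-14*, *gcy-20* and *gcy-21*, with *gcy-5* at 7.56-fold higher in N2. In the quasi-likelihood test of edgeR, which models counts and their spread between libraries, 0 of 41 tested members had an adjusted p under 0.05, against 0.00662% of all tested genes (1 gene). At an unadjusted p under 0.05 there were 5 members higher (12.2%, against 5.93% of all tested genes) and 6 lower (14.6%, against 8.23%). DESeq2, a second count model, called 3 members higher (7.32%, against 1.19%) and 1 lower (2.44%, against 2.03%). The remaining member, *gcy-2*, is annotated as a pseudogene. It had 7 and 3 counts in *pry-1(mu38)* and 5 and 4 in N2, too few to test.

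The strains did not overlap in 21 of the 41 members: the mutant libraries were the higher ones in 7 (17.1%, against 29.1% of all tested genes) and the lower ones in 14 (34.1%, against 28%). The median log2 fold change of the members was -0.75, against -0.02 for all tested genes. Without N2 replicate 2 the members' median was -0.02. At an unadjusted p under 0.05 there were then 7 higher (17.1%, against 10.5% of all genes tested) and 4 lower (9.76%, against 11.5%). With 2 libraries per strain, an exact permutation test of any single gene cannot give a two-sided p below 0.333, so none was used.

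**Figure D1:**
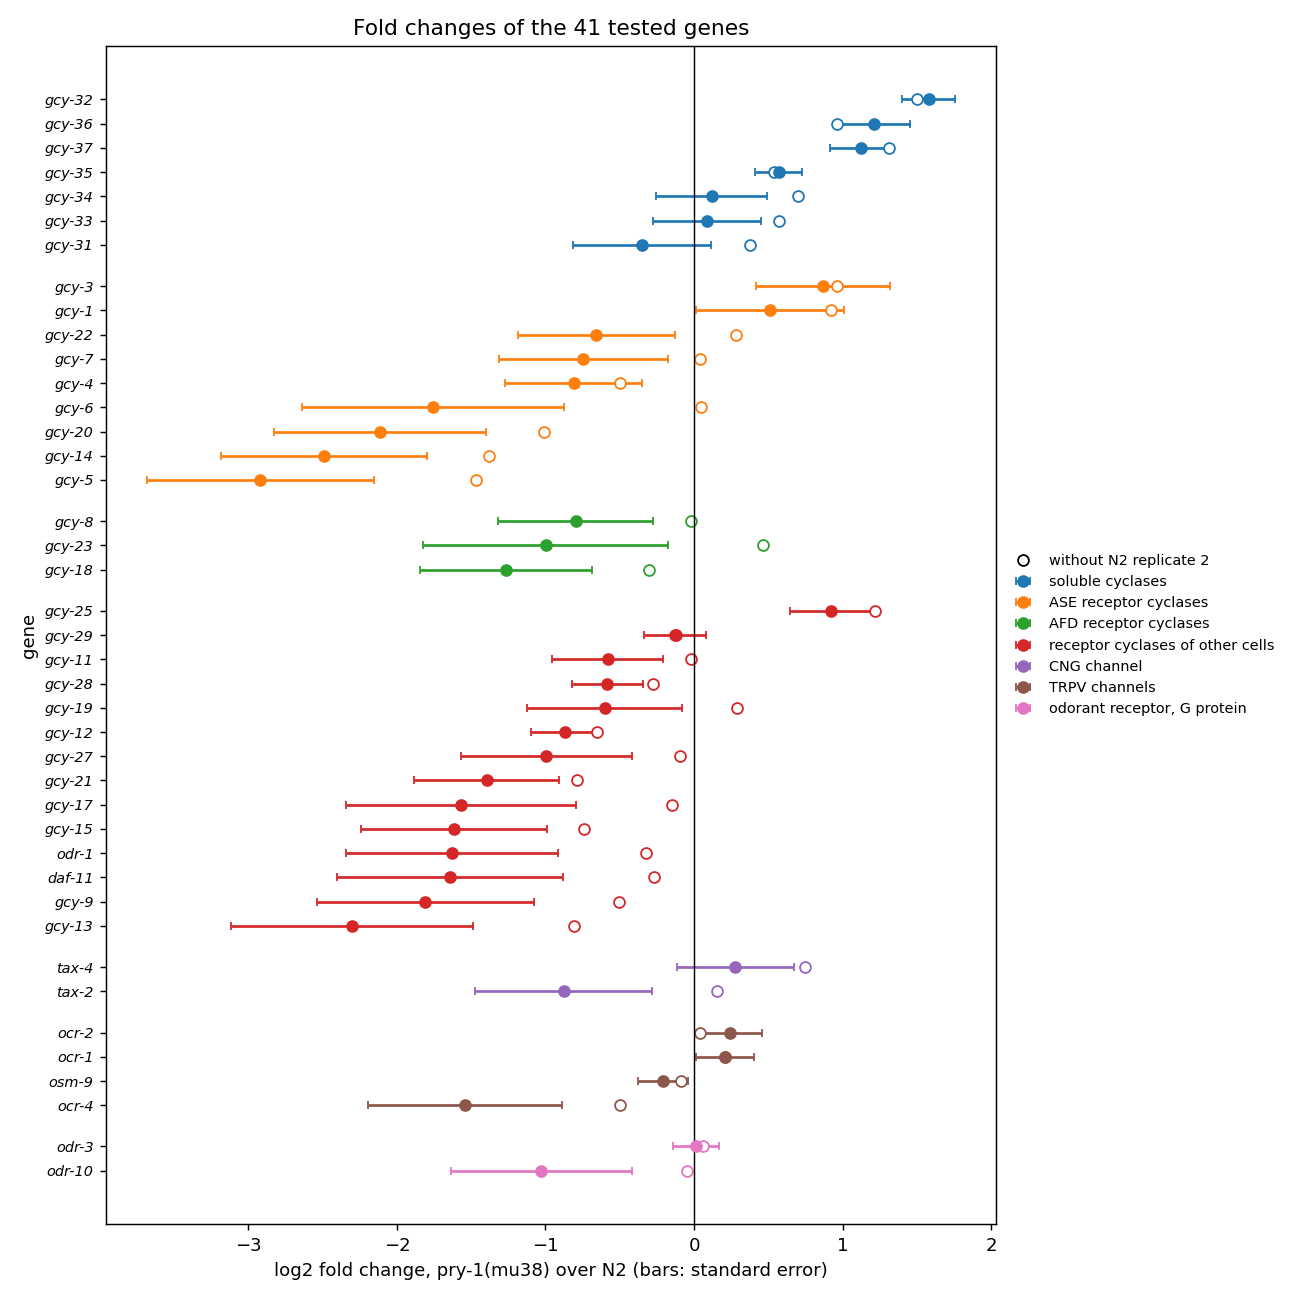
Log2 fold change of each of the 41 tested genes, *pry-1(mu38)* over N2 (horizontal axis), with genes ordered by role and then by value down the page. Filled points with bars give the fitted value and its standard error from all 4 libraries, and open circles give the value without N2 replicate 2. The URX, AQR and PQR cyclases *gcy-32*, *gcy-36*, *gcy-37*, *gcy-35* and *gcy-25* stay right of 0 either way, whereas most receptor cyclases move towards 0 when that library is left out.

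Of the soluble cyclases, *gcy-32*, *gcy-36* and *gcy-37* had the smallest unadjusted p-values of the 41 tested members in edgeR. The strains overlapped for *gcy-31*, *gcy-33* and *gcy-34*. *gcy-32* encodes a soluble cyclase of URX, AQR and PQR, and had 1218 and 1237 counts in *pry-1(mu38)* against 368 and 400 in N2. As a level this was 38.2 ± 0.54 CPM in *pry-1(mu38)* and 12.8 ± 0.97 CPM in N2 (SD, n = 2 libraries each), so the strains stood well apart. The log2 fold change was 1.58 ± 0.18 (SE), with an adjusted p of 0.289 in the quasi-likelihood test of edgeR and 6.58e-07 from DESeq2.

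*gcy-36* encodes a subunit of the oxygen-binding cyclase that works together with GCY-35. It had 1444 and 1360 counts in *pry-1(mu38)* and 610 and 508 in N2, or 43.6 ± 1.7 CPM and 18.8 ± 4.9 CPM (SD, n = 2 libraries each). The log2 fold change was 1.21 ± 0.24 (SE), with an adjusted p of 0.00853 from DESeq2 and 0.345 from edgeR. *gcy-37*, a further soluble cyclase of the same neurons, had 1115 and 1130 counts in *pry-1(mu38)* and 382 and 598 in N2. Its log2 fold change was 1.12 ± 0.21 (SE), with an adjusted p of 0.00832 from DESeq2 and 0.345 from edgeR. The libraries of the strains did not overlap for either gene.

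*gcy-35*, the partner of *gcy-36*, is also made in cells outside the oxygen-sensing neurons, and it differed less. It had 1969 and 1792 counts in *pry-1(mu38)* and 1099 and 1275 in N2, a log2 fold change of 0.57 ± 0.16 (SE) with an unadjusted p of 0.0162 and an adjusted p of 0.345 from edgeR. *gcy-34*, another soluble cyclase of URX, AQR and PQR, had 368 and 388 counts in *pry-1(mu38)* against 197 and 478 in N2. The mutant libraries of *gcy-34* lay between those of N2, so the strains overlapped.

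*gcy-31* and *gcy-33* are the soluble cyclases of BAG, which responds to a fall in oxygen. *gcy-31* had 156 and 188 counts in *pry-1(mu38)* and 112 and 315 in N2. *gcy-33* had 275 and 350 counts in *pry-1(mu38)* and 178 and 390 in N2. For both genes the mutant libraries again lay between the N2 libraries, with log2 fold changes of -0.35 ± 0.46 and 0.09 ± 0.36 (SE).

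The receptor cyclase *gcy-25* is also made in URX, AQR and PQR. It had 418 and 413 counts in *pry-1(mu38)* against 151 and 269 in N2, with no overlap and a log2 fold change of 0.92 ± 0.28 (SE; unadjusted p = 0.0216 and adjusted p = 0.345 in edgeR). Placing *gcy-25* with *gcy-32*, *gcy-34*, *gcy-35*, *gcy-36* and *gcy-37* as a group of 6 was done after the values were seen, so the group is described and not tested. Of the 6, 5 had both mutant libraries above both N2 libraries, as had 29.1% of all tested genes, and their summed level was 203 and 197 CPM in *pry-1(mu38)* against 103 and 107 CPM in N2. The median log2 fold change was 1.02, and 1.09 without N2 replicate 2. The summed level of the other members was 535 and 596 CPM in *pry-1(mu38)* against 649 and 1094 CPM in N2.

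Leaving out N2 replicate 2 brought *gcy-32*, *gcy-36* and *gcy-37* past the threshold of edgeR's quasi-likelihood test, with adjusted p-values of 0.0284, 0.0429 and 0.0338. Leaving out any other library did not. Over 4 other genes used as markers of URX, AQR and PQR, the summed level was 59.9 and 62.5 CPM in *pry-1(mu38)* and 51.4 and 74.1 CPM in N2. Among these, the globin gene *glb-5* had 169 and 187 counts in *pry-1(mu38)* and 81 and 105 in N2, a log2 fold change of 0.85 ± 0.27 (SE) with an unadjusted p of 0.0275 and an adjusted p of 0.345 from edgeR. The neuropeptide genes *flp-8* and *flp-10* and the receptor gene *npr-1* had log2 fold changes of -0.26, 0.16 and -0.21. Without N2 replicate 2 these were 0.26, 0.14 and 0.03, and that of *glb-5* was 0.90. The part of cell number in these values was not tested.

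**Figure D2:**
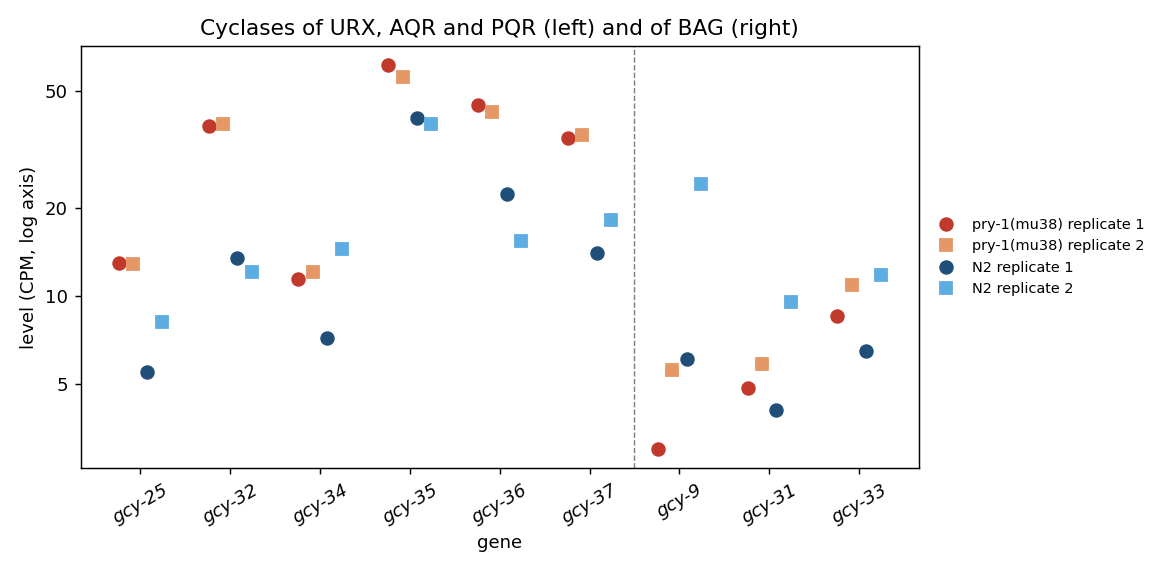
Level of the cyclases of URX, AQR and PQR (left of the dashed line) and of BAG (right) in each of the 4 libraries, in CPM on a log axis. Both *pry-1(mu38)* libraries (red, orange) lie above both N2 libraries (dark and light blue) for *gcy-25*, *gcy-32*, *gcy-35*, *gcy-36* and *gcy-37*, whereas the N2 libraries lie on either side of the mutant libraries for *gcy-34*, *gcy-31* and *gcy-33*.

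The receptor cyclases of the ASE taste neurons, which detect salts and other water-soluble cues, had a median log2 fold change of -0.81, and 0.038 when N2 replicate 2 was left out. Of the 9 tested, 7 had negative values, 4 had both mutant libraries below both N2 libraries (28% of all tested genes) and 3 were lower at an unadjusted p under 0.05 (8.23% of all tested genes). With N2 replicate 2 left out, 4 had negative values. *gcy-5*, made in the right ASE neuron, had 279 and 424 counts in *pry-1(mu38)* against 825 and 4474 in N2. The strains did not overlap, but the N2 libraries differed from each other by 2.16 on the log2 scale, more than the lower N2 library differed from the higher mutant library.

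The log2 fold change of *gcy-5* was -2.92 ± 0.76 (SE), with an adjusted p of 0.345 in edgeR and 0.000903 from DESeq2. When N2 replicate 2 was left out it was -1.47. With a mutant library left out it was -2.62 (replicate 1 left out) or -3.23 (replicate 2 left out). The exons of *gcy-5* overlap those of genes on the opposite strand over 459 nucleotides in the annotation. Reads in several genes were left out, but the strand setting and annotation of the counting are not given in the sources used here. How reads from this stretch were counted is thus not known. Exons of *gcy-7*, *gcy-9*, *gcy-22*, *gcy-28*, *gcy-33*, *gcy-34*, *gcy-35* and *ocr-1* also overlap other genes, over 24 to 213 nucleotides.

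*gcy-14*, a receptor cyclase of the left ASE neuron, had 14 and 14 counts in *pry-1(mu38)* and 31 and 125 in N2. *gcy-20*, also of the left ASE neuron, had 13 and 22 counts in *pry-1(mu38)* and 30 and 120 in N2. Both had mutant libraries below both N2 libraries, with log2 fold changes of -2.49 ± 0.69 and -2.11 ± 0.71 (SE). Without N2 replicate 2 these were -1.38 and -1.01. With all libraries their adjusted p-values were 0.345 from edgeR, and neither was called by DESeq2.

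*gcy-22*, the other well-known cyclase of the right ASE neuron, had 219 and 255 counts in *pry-1(mu38)* and 165 and 569 in N2. *gcy-6*, of the left ASE neuron, had 21 and 23 counts in *pry-1(mu38)* and 18 and 131 in N2, and *gcy-7*, also of the left, had 25 and 38 in *pry-1(mu38)* and 26 and 77 in N2. For these genes the strains overlapped, and the log2 fold changes of -0.66, -1.76 and -0.75 were 0.28, 0.05 and 0.04 without N2 replicate 2. Left and right ASE cyclases thus both held genes with and without overlap between the strains. *gcy-4* had 11 and 14 counts in *pry-1(mu38)* and 15 and 27 in N2.

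The neighbours *gcy-1*, *gcy-2* and *gcy-3* lie close together on chromosome II and are alike in sequence. Reads that matched several places were not counted, so their counts are uncertain. *gcy-1* had 21 and 15 counts in *pry-1(mu38)* and 8 and 16 in N2, and *gcy-3* had 21 and 16 in *pry-1(mu38)* and 8 and 11 in N2. *gcy-3* was the only ASE cyclase with both mutant libraries above both N2 libraries, at a log2 fold change of 0.87 ± 0.45 (SE) and an unadjusted p of 0.113 from edgeR.

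The 3 receptor cyclases of AFD, the main thermosensory neurons, are *gcy-8*, *gcy-18* and *gcy-23*. *gcy-8* had 199 and 343 counts in *pry-1(mu38)* and 233 and 687 in N2. *gcy-18* had 239 and 403 counts in *pry-1(mu38)* and 336 and 1182 in N2. *gcy-23* had 146 and 380 counts in *pry-1(mu38)* and 162 and 886 in N2. In all 3, N2 replicate 2 was the highest library and the other N2 library lay between the mutant libraries.

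The median log2 fold change of the AFD cyclases was -0.999, and -0.02 without N2 replicate 2. No AFD cyclase had an unadjusted p under 0.05. The AFD fate factor *ttx-1* had 437 and 386 counts in *pry-1(mu38)* and 304 and 481 in N2, with a log2 fold change near 0 (-0.0038), and *srtx-1*, an AFD receptor gene, had 10 and 25 counts in *pry-1(mu38)* and 12 and 49 in N2.

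**Figure D3:**
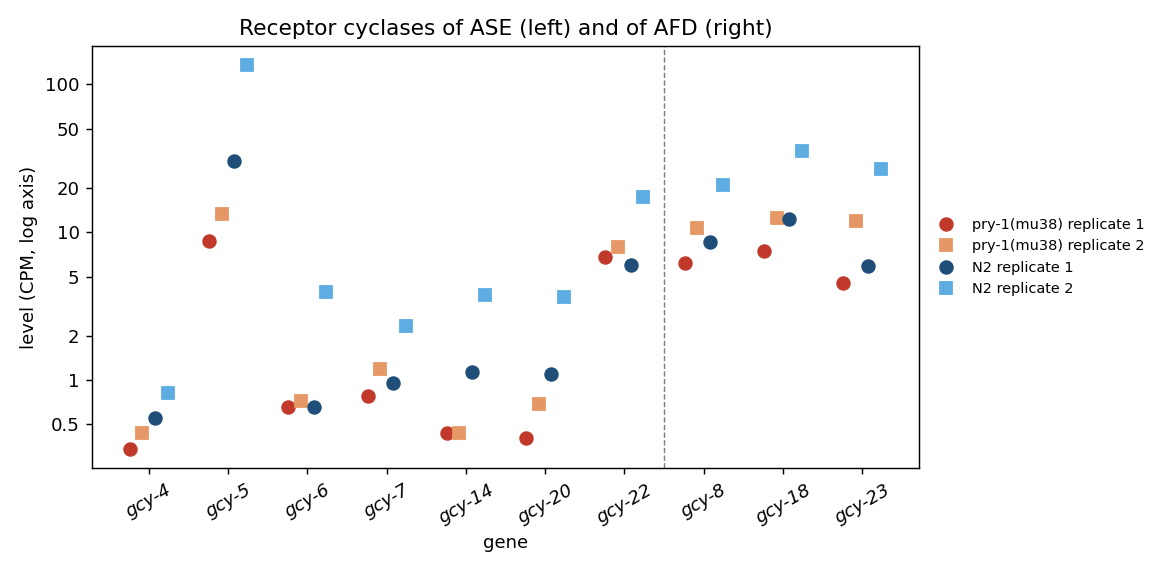
Level of the receptor cyclases of ASE (left of the dashed line) and of AFD (right) in each of the 4 libraries, in CPM on a log axis. N2 replicate 2 (light blue squares) is the highest library for all 10 genes shown, *gcy-1*, *gcy-2* and *gcy-3* not being drawn, for which *pry-1(mu38)* replicate 1 was the highest, and both *pry-1(mu38)* libraries lie under the lower N2 library for *gcy-4*, *gcy-5*, *gcy-14* and *gcy-20*.

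Of the 14 receptor cyclases of other cells, 13 had negative log2 fold changes, *gcy-25* being the exception. Negative values were found for 7786 of all 15101 tested genes. *gcy-28* is made widely in the nervous system and acts in olfactory preference and learning. It had 6705 and 7224 counts in *pry-1(mu38)* and 7154 and 12836 in N2, and as a level it was lower in both mutant libraries (208 and 225 CPM) than in both N2 libraries (262 and 388 CPM). Its log2 fold change was -0.58 ± 0.24 (SE) with an unadjusted p of 0.0596 from edgeR, and -0.28 without N2 replicate 2.

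*gcy-12*, a receptor cyclase linked to body size control, had 1104 and 1402 counts in *pry-1(mu38)* and 1669 and 2688 in N2. The strains did not overlap, with 39.0 ± 6.7 CPM in *pry-1(mu38)* and 71.2 ± 14 CPM in N2 (SD, n = 2 libraries each). The log2 fold change was -0.87 ± 0.23 (SE; unadjusted p = 0.0139 and adjusted p = 0.345 in edgeR), and -0.65 without N2 replicate 2.

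The less abundant *gcy-13* had 18 and 25 counts in *pry-1(mu38)* and 32 and 180 in N2, and *gcy-21* had 29 and 38 in *pry-1(mu38)* and 49 and 122 in N2. Both had mutant libraries below both N2 libraries, with log2 fold changes of -2.30 ± 0.81 and -1.39 ± 0.49 (SE), an unadjusted p of 0.0379 and 0.0367 and an adjusted p of 0.345 from edgeR. Without N2 replicate 2 these were -0.81 and -0.79, with an unadjusted p of 0.126 and 0.0894.

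*daf-11* and *odr-1* encode receptor cyclases that serve olfaction, and *daf-11* also acts in dauer formation. *daf-11* had 112 and 224 counts in *pry-1(mu38)* and 172 and 871 in N2, so the strains overlapped, with a log2 fold change of -1.64 ± 0.76 (SE), or -0.27 when N2 replicate 2 was left out. With replicate 1 or replicate 2 of *pry-1(mu38)* left out, the log2 fold change of *daf-11* was -1.20 or -2.20. *odr-1* had 36 and 47 counts in *pry-1(mu38)* and 44 and 211 in N2, a log2 fold change of -1.63, or -0.32 without N2 replicate 2.

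*gcy-9*, the carbon dioxide receptor of BAG, had 97 and 180 counts in *pry-1(mu38)* and 167 and 798 in N2, with both mutant libraries below both N2 libraries as levels. Its log2 fold change was -1.81 ± 0.73 (SE), or -0.51 without N2 replicate 2. All 4 genes taken as BAG markers had negative values, as had 7786 of the 15101 tested genes, and N2 replicate 2 was the highest library for each marker. The summed level of these markers was 31.5 and 51.4 CPM in *pry-1(mu38)* against 51.8 and 97.5 CPM in N2. Among them, the neuropeptide gene *flp-13* had 232 and 377 counts in *pry-1(mu38)* and 409 and 1223 in N2, a log2 fold change of -1.45 ± 0.51 (SE) with an unadjusted p of 0.0375 and an adjusted p of 0.345 from edgeR. The value of *flp-13* without N2 replicate 2 was -0.66. Those of *flp-17*, *flp-19* and *ets-5* were -0.30, -1.12 and -1.50, and -0.10, -0.44 and -0.37 without that library. The BAG cyclases *gcy-31* and *gcy-33*, as given above, stood at -0.35 and 0.09. The part of cell number in the value of *gcy-9* was not tested.

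The other receptor cyclases differed in how far they moved with N2 replicate 2. *gcy-11* had 279 and 317 counts in *pry-1(mu38)* and 256 and 608 in N2, and *gcy-29* had 303 and 332 in *pry-1(mu38)* and 292 and 361 in N2. For *gcy-11* the log2 fold change was -0.58, and -0.02 without N2 replicate 2, whereas that of *gcy-29* was -0.13, and -0.12 without that library. *gcy-15*, *gcy-17*, *gcy-19* and *gcy-27* had log2 fold changes of -1.61, -1.57, -0.60 and -0.99, which became -0.74, -0.15, 0.29 and -0.10 without N2 replicate 2. No member of this last set of 6 had an unadjusted p under 0.05.

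The channel subunits that respond to cGMP differed between the strains by less than the N2 libraries differed from each other. *tax-2* had 102 and 147 counts in *pry-1(mu38)* and 95 and 355 in N2. *tax-4* had 132 and 110 counts in *pry-1(mu38)* and 61 and 131 in N2. The strains overlapped for both genes, with log2 fold changes of -0.88 ± 0.60 and 0.28 ± 0.39 (SE). Without N2 replicate 2 these were 0.15 and 0.75.

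Of the TRPV channel genes, *osm-9* and *ocr-2* encode the main subunits of the olfactory and nociceptive channel, and *ocr-1* and *ocr-4* encode related subunits. *osm-9* had 1700 and 1654 counts in *pry-1(mu38)* and 1506 and 2165 in N2, and *ocr-2* had 2043 and 1704 in *pry-1(mu38)* and 1539 and 1396 in N2. Their log2 fold changes were small, at -0.21 ± 0.17 and 0.24 ± 0.22 (SE). *ocr-1* had 580 and 507 counts in *pry-1(mu38)* and 399 and 485 in N2, and *ocr-4* had 68 and 127 in *pry-1(mu38)* and 117 and 442 in N2. As levels, *ocr-1* lay above and *ocr-4* below both N2 libraries in both mutant libraries, without an unadjusted p under 0.05. For *ocr-4* the log2 fold change was -1.54 ± 0.65 (SE), and -0.50 without N2 replicate 2.

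*odr-3*, which encodes a G protein alpha subunit of olfactory and nociceptive neurons, had the log2 fold change nearest to 0 of the 41 tested. It had 1916 and 2029 counts in *pry-1(mu38)* and 1604 and 2076 in N2, or 61.4 ± 2.7 CPM in *pry-1(mu38)* and 60.7 ± 2.9 CPM in N2 (SD, n = 2 libraries each), with a log2 fold change of 0.02 ± 0.15 (SE). *odr-10*, the diacetyl receptor of the AWA olfactory neurons, had 26 and 31 counts in *pry-1(mu38)* and 25 and 89 in N2. Its log2 fold change was -1.03 ± 0.61 (SE), and -0.05 without N2 replicate 2.

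Levels were compared between genes only per kilobase of annotated exon. The highest in *pry-1(mu38)* were *odr-3* at 37.6 CPM per kb, *gcy-28* at 34.5, *gcy-35* at 24.6 and *ocr-2* at 20.3. In N2 they were *gcy-28* at 51.7 CPM per kb, *odr-3* at 37.2, *gcy-5* at 24.5 and *osm-9* at 20.96. On the same scale *gcy-5* stood at 3.25 CPM per kb in *pry-1(mu38)*. The N2 mean of *gcy-5* rested on libraries at 30.2 and 135 CPM, the higher being N2 replicate 2.

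N2 replicate 2 was the highest library for 30 of the 41 tested members (73.2%), against 39.6% of all tested genes, and at least 2-fold above N2 replicate 1 for 23 (56.1%, against 16%). It was not 2-fold below it for any. Within *pry-1(mu38)*, replicate 2 was above replicate 1 for 32 of the 41 (78.0%, against 49.2%). Across the 41 genes, which share their libraries and are not independent, the within-strain log2 differences of the strains had a Pearson's r of 0.68 and a Spearman's rho of 0.71. Over 15088 tested genes with a count in every library, these were 0.46 and 0.44. *gcy-23*, *gcy-15*, *daf-11*, *ocr-4* and *gcy-9* were far above replicate 1 in replicate 2 of both strains. Nearly level within *pry-1(mu38)* were *gcy-32*, *gcy-35*, *gcy-36* and *gcy-37*. So were *gcy-14*, *gcy-25*, *gcy-34*, *osm-9* and *odr-3*, and this trait was thus not particular to the soluble cyclases. Within N2 the log2 ratio of replicate 2 over replicate 1 was -0.54 for *gcy-36* and 0.37 for *gcy-37*.

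**Figure D4:**
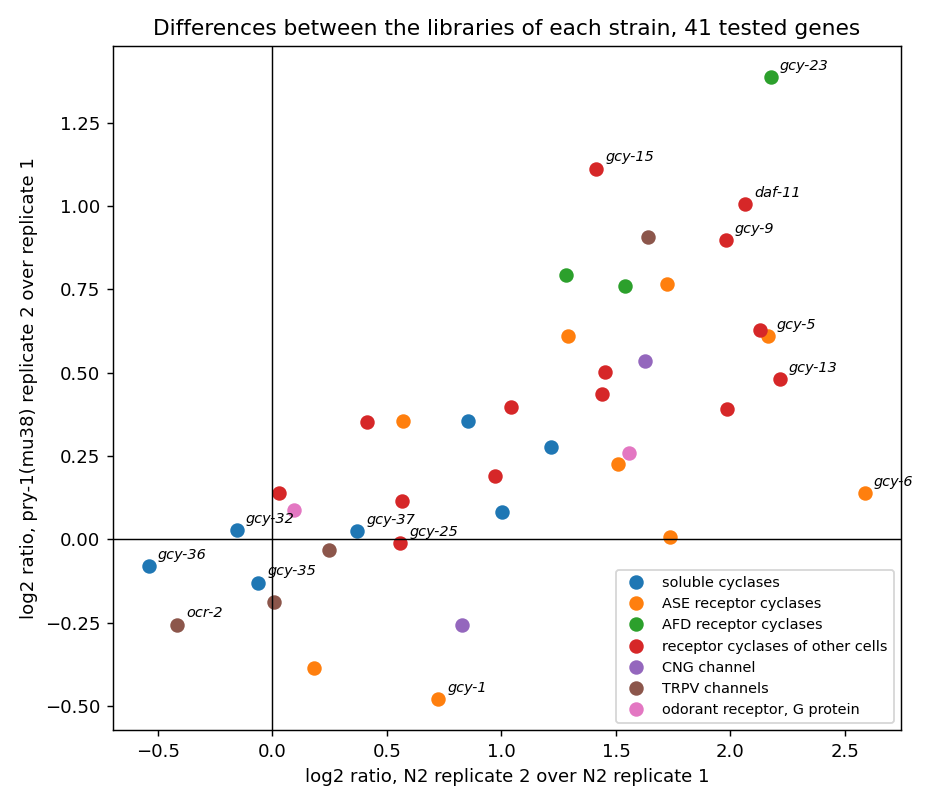
Log2 ratio of replicate 2 over replicate 1 for each of the 41 tested genes, in N2 (horizontal axis) and in *pry-1(mu38)* (vertical axis), coloured by role, as a description of how the libraries of each strain differ. Most receptor cyclases lie in the upper right. The soluble cyclases *gcy-32*, *gcy-35*, *gcy-36* and *gcy-37* lie near 0 on the *pry-1(mu38)* axis, as do genes of other roles such as *gcy-14*, *gcy-25*, *osm-9* and *odr-3*.

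The wider cGMP and chemosensory signalling genes, a list of 35 that excludes the members, had 3 genes higher (8.57%, against 5.93% of all tested genes) and 3 lower (8.57%, against 8.23%) at an unadjusted p under 0.05 in edgeR. DESeq2 called 1 of them lower (2.86%, against 2.03%), *gpa-6*, a G protein alpha subunit, with 317 and 337 counts in *pry-1(mu38)* and 739 and 1101 in N2. Its log2 fold change was -1.57 ± 0.21 (SE), with an adjusted p of 1.43e-05 from DESeq2 and 0.329 from edgeR. Among the others, *daf-25*, whose product brings cGMP signalling proteins into cilia, had 1360 and 1209 counts in *pry-1(mu38)* and 732 and 666 in N2, with a log2 fold change of 0.77 ± 0.22 (SE). *cng-3*, a cyclic nucleotide-gated channel subunit, had 38 and 57 counts in *pry-1(mu38)* and 78 and 328 in N2, a log2 fold change of -2.11, or -0.95 without N2 replicate 2. *gpa-5*, an alpha subunit, had 143 and 110 counts in *pry-1(mu38)* and 27 and 67 in N2.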

How the data were processed

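The authors sequenced TruSeq v2 mRNA libraries as 100-base pairs on an Illumina HiSeq. Their methods name trimming with cutadapt/trimgalore, mapping to ce6 with Bowtie, eXpress, quantile normalization and DESeq, whereas the submitters' processing notes name BWA and DESeq. The deposited table holds raw counts per gene, with no decimals, for 4 libraries. The counter, its strand setting and the annotation are not given in the sources used here. Rows naming no gene were left out: reads outside genes (5.32% to 6.75% of reads per library), in several genes (0.556% to 0.62%) and at several places (8.04% to 11.6%).

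Counts were fitted with edgeR 4.0.16 (R 4.3.3): filterByExpr with a minimum count of 10, TMM scaling and the quasi-likelihood test of *pry-1(mu38)* over N2, with Benjamini-Hochberg adjustment over 15101 genes at 0.05. With 2 libraries per strain, 2 residual degrees of freedom remain, and 1 when a library is left out. DESeq2 1.42.0, edgeR's exact test, quantile normalization, other filters and scalings, a replicate block and leaving out each library were alternatives. Tables were summarised in Python 3.11.15. The fitting script was tested on simulated data. CPM used TMM-scaled totals. Exon lengths, overlaps and names came from WBcel235, matched by gene name or RefSeq sequence name. Counts are printed for members averaging 10 or more counts that had an unadjusted p under 0.05 or a DESeq2 call, for up to 4 further members of each list with the highest mean count, and for other members where they are described. Genes of other lists are named at an unadjusted p under 0.05, at most 4 per list, and other marker genes were named after their values were seen. The members and lists were chosen with earlier results of these data known. *odr-1*, *gcy-1*, *gcy-2*, *gcy-3* and *gcy-9* were printed outside that rule.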

Additional observations from a re-analysis of the deposited data

How the results depend on the processing

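The number of calls depended on the test, with 2 libraries per strain. Against 0 members by edgeR's quasi-likelihood test, 4 members were called by DESeq2, 4 by edgeR's exact test and 4 after quantile normalization (*gcy-5*, *gcy-32*, *gcy-36* and *gcy-37* each time), and 6 by DESeq2 without N2 replicate 2, an alternative chosen after seeing the data. Of all genes, 1 was called in the main test, 486 by DESeq2, 292 by the exact test, 508 after quantile normalization, 0 without a filter on low counts and 899 by DESeq2 without N2 replicate 2. Leaving out each library in turn gave 0 to 3 members and 0 to 512 genes. The same left-out libraries gave medians of -1.12 to -0.0196 for the members, -1.68 to -0.0196 for the AFD cyclases and 0.52 to 0.70 for the soluble cyclases, and DESeq2 without N2 replicate 2 gave -0.0097, -0.011 and 0.71. The replicate numbers are shared by both strains but no label ties them to a common culture or day. The within-strain differences had r = 0.468 and rho = 0.44 over 15101 genes. With the replicate block, 2327 genes and 17 members were called, 4 higher (*gcy-25*, *gcy-32*, *gcy-36*, *gcy-37*) and 13 lower (*daf-11*, *gcy-5*, *gcy-9*, *gcy-12*, *gcy-13*, *gcy-14*, *gcy-15*, *gcy-17*, *gcy-18*, *gcy-20*, *gcy-21*, *ocr-4*, *odr-1*), and how far pairing accounts for this was not tested.

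Among the 33 members that the printing rule selects, some signs turned when a library was left out. Signs turned for *gcy-22* (-1.19 to 0.28), *gcy-23* (-1.82 to 0.46), *gcy-31* (-0.80 to 0.38), *gcy-33* (-0.25 to 0.57) and *gcy-34* (-0.27 to 0.70). They also turned for *gcy-6* (-2.49 to 0.0499), *gcy-7* (-1.21 to 0.0383), *odr-3* (-0.009 to 0.075), *tax-2* (-1.44 to 0.15) and *tax-4* (-0.0413 to 0.75). Outside that rule the sign of *gcy-19* turned (-1.12 to 0.29). By DESeq2 without N2 replicate 2 the log2 fold changes were 0.29 for *gcy-22*, 0.47 for *gcy-23*, 0.39 for *gcy-31*, 0.0607 for *gcy-6*, 0.0478 for *gcy-7* and 0.16 for *tax-2*. The cause was not tested. No sign turned among the 33 members that the printing rule selects under the other filters, scalings and tests.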

Other observations

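Genes that build and maintain sensory cilia, of which 29 of 35 were matched, had 0 higher and 1 lower (3.45%, against 8.23% of all tested genes) at an unadjusted p under 0.05 by edgeR. That gene was *osm-3*, a kinesin motor, with 431 and 494 counts in *pry-1(mu38)* and 520 and 1069 in N2, a log2 fold change of -0.84, or -0.41 without N2 replicate 2. Of 13 tested fate factors of sensory neurons, 1 was higher (7.69%, against 5.93% of all tested genes) and 1 lower (7.69%, against 8.23%) at that p. *fozi-1* was higher, with 1263 and 1119 counts in *pry-1(mu38)* and 690 and 792 in N2, a log2 fold change of 0.59 ± 0.17 (SE). *lim-4* was lower, with 64 and 136 counts in *pry-1(mu38)* and 147 and 516 in N2. Both had an adjusted p of 0.345 from edgeR. The log2 fold change of *lim-4* was -1.75, and -0.79 without N2 replicate 2, with an unadjusted p of 0.168. The ASE fate factor *che-1* had 3 and 6 counts in *pry-1(mu38)* and 4 and 7 in N2, too few to test.

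Amphid glia genes, which mark the support cells of these neurons, had 2 of 6 higher (33.3%, against 5.93% of all tested genes) and 0 lower at that p. *vap-1* had 109 and 92 counts in *pry-1(mu38)* and 34 and 36 in N2, a log2 fold change of 1.42 ± 0.33 (SE), and *fig-1* had 2821 and 2766 counts in *pry-1(mu38)* and 1805 and 1899 in N2, a log2 fold change of 0.49 ± 0.16 (SE). Both had an adjusted p of 0.345 from edgeR. Of the others, *daf-6* and *kcc-3* had log2 fold changes of -1.14 and -0.49, and *ptr-10* and *che-14* had 0.63 and 0.32. The median of the list was 0.41, and -0.0048 without N2 replicate 2. Of the 15 pan-neuronal genes, 0 were higher and 0 lower at that p by edgeR and 0 were called by DESeq2. Both *pry-1(mu38)* libraries were below both N2 libraries for 9 of the 15 (60.0%, against 28% of all tested genes) and above both for 4 (26.7%, against 29.1%). Among 5 body wall muscle genes, 0 were higher and 1 was lower (20.0%, against 8.23% of all tested genes) at that p by edgeR. It was *unc-22*, which encodes the giant muscle protein twitchin, with an adjusted p of 0.345 from edgeR. Its log2 fold change was -0.76 ± 0.29 (SE), or -0.37 without N2 replicate 2. No tested gene of the intestine (4), hypodermis (5) or germ line (4) lists had an unadjusted p under 0.05 in edgeR. The hypodermis genes, 2 with positive and 3 with negative values, were uneven between libraries. Their summed level was 54.4 and 155 CPM in *pry-1(mu38)* and 195 and 520 CPM in N2. *sqt-3* had a log2 fold change of -2.42 ± 0.94 (SE), or -1.17 without N2 replicate 2. *dpy-13* had 41 and 418 counts in *pry-1(mu38)* and 324 and 213 in N2.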
